A study of Homo sapiens with 6 samples.

Results

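The zinc finger genes of chromosome 19 were examined in chromatin immunoprecipitation sequencing (ChIP-seq) of plasminogen activator inhibitor-1 (PAI-1). PAI-1 is a secreted protease inhibitor that can also be found in the nucleus of tumor cells. Members were the protein-coding genes on chromosome 19 whose symbol is ZNF followed by digits only. They were 240 of 20163 protein-coding genes, with 83 on the short arm (19p) and 157 on the long arm (19q). Their chromosome held 1212 other protein-coding genes. The samples were nuclear fractions of RT112 and UM-UC-3, established cell lines of human bladder cancer, from which endogenous PAI-1 was precipitated with an antibody (clone 3F2). No treatment, knockdown or engineered allele is named in the labels for either line, and each line gave 2 ChIP libraries and 1 input library without antibody. The 4 ChIP libraries each have a peak list on hg19, and the 2 inputs were not analysed here. The labels call the ChIP libraries of a line biological replicates and say no more of how they were obtained.

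C2H2 zinc finger proteins bind DNA through tandem fingers, each folded around a zinc ion held by a pair of cysteines and a pair of histidines. Many of those on chromosome 19 also carry a KRAB domain, which recruits the corepressor TRIM28 (KAP1), the histone methyltransferase SETDB1 and heterochromatin proteins. The genes arose by tandem duplication and lie in clusters, and the fingers are usually coded by a single long last exon, so neighbouring genes hold similar sequence. The 3′ exons of these genes are known to carry heterochromatin marks in many human cells, and ZNF274, itself a member, is known to bind there. The genomic sequence of 239 members could be read in frame, and a C2H2 pattern found 2990 fingers in them, with a median of 12 per gene and up to 36 in ZNF208. The last exon held 98.1% of the fingers, and in 232 members it held every one.

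Finger-coding sequence itself lay under reproducible peaks in a few genes. In 9 members a peak of the last exon touched finger codons and was found in both replicates of a cell line, and 4 of these peaks are printed first below as examples. Coordinates are on hg19 (GRCh37), each sequence is written 5′ to 3′ on the strand of the gene, and capitals mark the bases that code for a finger, from its first cysteine to its last histidine. All 4 regions lie wholly in coding sequence of the last exon. ZNF57, chr19:2917848-2918097, plus strand, was a peak of UM-UC-3 that touched 4 fingers and also overlapped an exon of a long non-coding RNA. ZNF599, chr19:35250300-35250578, minus strand, was a peak of UM-UC-3 that likewise touched 4 fingers. ZNF77, chr19:2934373-2934594, minus strand, was a peak of UM-UC-3 that touched 2 fingers. ZNF135, chr19:58578242-58578510, plus strand, was a peak of RT112 replicate 2 that began ahead of the finger array and reached 13 bases into it. The peak of RT112 replicate 1, chr19:58578240-58578589, was longer and covered 71 finger-coding bases of 2 fingers.
ZNF57: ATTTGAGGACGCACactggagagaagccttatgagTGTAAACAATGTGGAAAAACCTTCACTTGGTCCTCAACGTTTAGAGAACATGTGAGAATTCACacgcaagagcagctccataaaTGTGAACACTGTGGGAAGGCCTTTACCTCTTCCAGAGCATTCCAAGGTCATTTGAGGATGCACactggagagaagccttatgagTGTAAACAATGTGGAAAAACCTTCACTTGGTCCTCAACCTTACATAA
ZNF599: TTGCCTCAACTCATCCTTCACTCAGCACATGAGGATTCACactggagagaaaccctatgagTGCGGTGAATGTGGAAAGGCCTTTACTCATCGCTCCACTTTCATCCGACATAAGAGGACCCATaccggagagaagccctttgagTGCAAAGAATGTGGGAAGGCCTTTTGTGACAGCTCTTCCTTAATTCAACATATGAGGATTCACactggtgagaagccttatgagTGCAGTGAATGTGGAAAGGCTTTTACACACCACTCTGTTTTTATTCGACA
ZNF77: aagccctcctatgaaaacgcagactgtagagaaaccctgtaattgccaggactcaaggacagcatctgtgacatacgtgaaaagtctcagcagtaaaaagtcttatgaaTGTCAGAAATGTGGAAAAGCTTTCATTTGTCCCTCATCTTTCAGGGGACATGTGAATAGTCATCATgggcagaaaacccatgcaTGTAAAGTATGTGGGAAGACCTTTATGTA
ZNF135: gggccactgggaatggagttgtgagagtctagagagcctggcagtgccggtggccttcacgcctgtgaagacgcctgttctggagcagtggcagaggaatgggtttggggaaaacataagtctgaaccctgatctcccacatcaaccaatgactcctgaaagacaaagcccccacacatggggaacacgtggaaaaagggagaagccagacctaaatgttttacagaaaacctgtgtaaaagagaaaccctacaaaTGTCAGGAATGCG
In ZNF57, ZNF599 and ZNF77 the fingers follow each other every 84 bases, from first cysteine to first cysteine. The lower-case stretches between them code for the linkers.

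A further 3 regions lay outside the last exon and are shown because each held the highest score of a library at the members. The score is a −log10 significance value from the peak caller, higher for stronger peaks. ZNF582, chr19:56888212-56888508, is printed on the plus strand as called in RT112 replicate 1. Capitals mark the 193 bases covered in all 4 libraries (chr19:56888257-56888449). The higher-scoring peak of both UM-UC-3 libraries, chr19:56888257-56888548, ends beyond the printed bases. The printed region lies within the extent of ZNF582, outside its exons, and overlaps an exon of ZNF542P on the annotation, a zinc finger pseudogene. ZNF93, chr19:20063404-20063703, plus strand, is the middle of an intronic peak of RT112. ZNF235, chr19:44772710-44772948, minus strand, is an intronic peak of UM-UC-3 that also lies within ZNF233, a member that overlaps ZNF235. In the latter pair capitals mark the middle 20 bases of the peak.
ZNF582: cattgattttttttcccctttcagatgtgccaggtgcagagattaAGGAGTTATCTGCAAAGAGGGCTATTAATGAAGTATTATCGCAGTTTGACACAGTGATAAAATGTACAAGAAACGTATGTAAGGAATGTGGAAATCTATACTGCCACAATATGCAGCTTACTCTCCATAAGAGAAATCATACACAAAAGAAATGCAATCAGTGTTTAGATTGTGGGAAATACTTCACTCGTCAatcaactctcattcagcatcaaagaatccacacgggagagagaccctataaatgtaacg
ZNF93: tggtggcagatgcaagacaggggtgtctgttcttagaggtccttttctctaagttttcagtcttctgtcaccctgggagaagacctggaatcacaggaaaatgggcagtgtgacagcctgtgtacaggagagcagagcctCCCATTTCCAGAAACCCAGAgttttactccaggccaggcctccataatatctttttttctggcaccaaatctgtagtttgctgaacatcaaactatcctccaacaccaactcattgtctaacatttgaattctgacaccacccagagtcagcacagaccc
ZNF235: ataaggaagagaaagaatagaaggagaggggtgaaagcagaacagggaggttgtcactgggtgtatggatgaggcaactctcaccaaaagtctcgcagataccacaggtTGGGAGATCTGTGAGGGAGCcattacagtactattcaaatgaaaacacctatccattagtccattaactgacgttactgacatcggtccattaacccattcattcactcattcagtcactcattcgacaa
The ZNF582 region was the strongest peak of the members that was found in all 4 libraries, with scores of 6.15 and 4.09 at the replicates of RT112 compared with 29.6 and 41.8 at those of UM-UC-3. Its scores were thus higher in both UM-UC-3 libraries. The ZNF93 peak had the highest score of any peak at the members in RT112 replicate 1 (44.7), and its score was 17.1 in replicate 2. The ZNF235 peak had the highest score at the members in UM-UC-3 replicate 1 (32.3), and its score was 21.2 in replicate 2. Neither of these 2 peaks had a counterpart in the other cell line. No 100-base word that starts in any of these 7 regions occurred elsewhere on chromosome 19.

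The lists hold 96423 and 60227 peaks for RT112 and 109287 and 114094 for UM-UC-3, so RT112 replicate 2 stood apart with the fewest. They contain no read counts, so sequencing depth is unknown and counting intervals cannot be given. Chromosome 19 held 1.51 to 1.63% of the peaks of each library. The members with 3 kb on both sides covered 15.3% of the chromosome and held 16.6 and 16.5% of its peaks in RT112 compared with 18.4 and 17.8% in UM-UC-3.

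To find how often PAI-1 peaks met these genes, a gene was counted when it or its 3 kb flanks met a peak. In RT112, 131 members (54.6%) had a peak in replicate 1 and 97 (40.4%) in replicate 2, against 53.9 and 44.5% of all protein-coding genes. In UM-UC-3, 160 members (66.7%) had a peak in replicate 1 and 157 (65.4%) in replicate 2, against 58.6 and 59.2% of all genes. The members were thus near the genome-wide share in RT112 and above it in both UM-UC-3 libraries. Between the lines, the mean was 47.5% ± 10 (SD, n = 2) in RT112 versus 66% ± 0.884 (SD, n = 2) in UM-UC-3. Both UM-UC-3 libraries lay above both RT112 libraries, by 18.5 points on average (exact permutation test over libraries, two-sided p = 0.333, the smallest that 2 against 2 libraries allow). The difference was 25.6 points without RT112 replicate 1 and 11.5 without RT112 replicate 2, so its size rests on which RT112 library is taken.

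Longer members had a peak more often. The median length was 25.5 kb for the members, 13.7 kb for the other genes on chromosome 19 and 28.8 kb for genes on other chromosomes. Among the 60 shortest members (3.12 to 15.8 kb), 35 and 28.3% had a peak in RT112 compared with 38.3 and 43.3% in UM-UC-3. Among the 60 longest (36.8 to 488.7 kb), the shares were 76.7 and 55% in RT112 versus 86.7 and 83.3% in UM-UC-3. Spearman's rho between length and the number of peaks across the 240 members was 0.408 and 0.275 in RT112 compared with 0.533 and 0.472 in UM-UC-3, as a description of genes that share a library and in part overlap.

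The other genes were therefore weighted to the members' distribution over 20 length classes, which gives a length-standardised share. For the other genes on chromosome 19 this was 39.5 and 30.9% in RT112 versus 41 and 43.6% in UM-UC-3. The members exceeded it by 12.3 points ± 3.93 (SD, n = 2) in RT112 and by 23.7 points ± 2.76 (SD, n = 2) in UM-UC-3. For genes on other chromosomes the length-standardised share was 50.6 and 38.2% in RT112 compared with 56.1 and 57.1% in UM-UC-3. The members exceeded it by 3.08 points ± 1.28 (SD, n = 2) in RT112 and by 9.44 points ± 1.65 (SD, n = 2) in UM-UC-3. All 4 libraries gave a positive difference in both comparisons, which are descriptions without a test.

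The sign turned when base composition was taken into account. The members and their flanks had a GC content of 43.5%, against 51.6% for the other genes of the chromosome. When other chromosome 19 genes were standardised on 5 classes of length and 5 of GC content together, their share was 64.5 and 50.3% in RT112 versus 70 and 69.1% in UM-UC-3. For 227 members a class held such genes, and the share of these members with a peak was 55.5 and 41.4% in RT112 versus 66.5 and 64.3% in UM-UC-3. They thus differed from the other genes by -8.98 points on average in RT112 and by -4.17 points in UM-UC-3, in a comparison chosen after the data were seen. Against other chromosomes on the same classes, the shares were 57.4 and 44.1% in RT112 versus 61.6 and 62.7% in UM-UC-3, so that members lay lower in RT112 and higher in UM-UC-3. Among the 25% of peaks with the highest scores in each library, the members differed from the length-standardised other genes of the chromosome by -0.763 points in RT112 and by 13.5 points in UM-UC-3. The part of base composition in these differences was not tested.

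**Figure D1:**
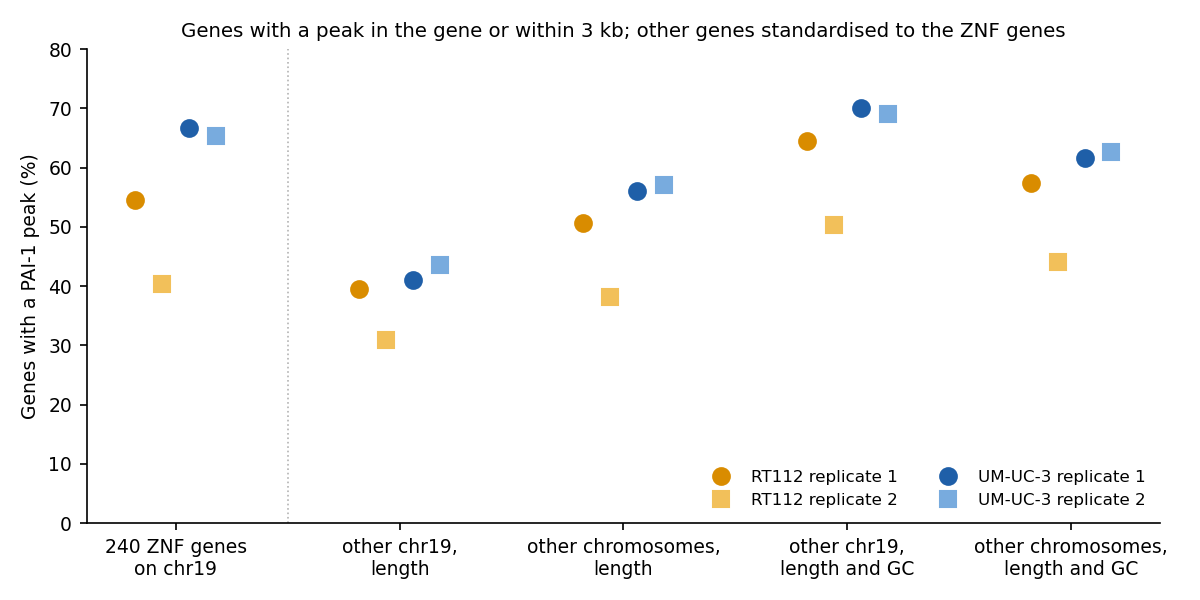
Share of genes with a PAI-1 peak in the gene or within 3 kb (y axis, percent) for the 240 zinc finger genes on chromosome 19 and for other genes standardised to them on length alone or on length and GC content (x axis), 1 point per library. The members sit above other chromosome 19 genes standardised on length (54.6 against 39.5% in RT112 replicate 1, for example) and below those standardised on length and GC content in all 4 libraries.

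The members were set beside their relatives. ZNF genes on other chromosomes, 236 in number, had a peak in 60.2 and 42.4% of cases in RT112 and in 65.3 and 66.5% in UM-UC-3. Their shares lay within 6 points of the members' in each library. Of 21 related genes on chromosome 19 (ZFP, ZSCAN, ZIM, ZIK1, PEG3 and ZNF symbols with a letter), 12 and 8 had a peak in RT112 versus 14 and 13 in UM-UC-3. These were 57.1, 38.1, 66.7 and 61.9% of them, against 53.9, 44.5, 58.6 and 59.2% of all genes. PEG3, an imprinted gene at the end of 19q, had 3 and 2 peaks in RT112 and none in either UM-UC-3 library. Of 19 genes of the repressor pathway that KRAB proteins use, 9 and 6 had a peak in RT112 versus 11 and 12 in UM-UC-3. These shares of 47.4, 31.6, 57.9 and 63.2% lay below the 63.9, 52.9, 68.3 and 69.4% of genes on other chromosomes standardised to their length. TRIM28, the corepressor itself, is 6.66 kb long and had none in any library, and neither had DAXX, EHMT2 or TASOR (63.1 kb). DNMT1 (97.9 kb), the maintenance DNA methyltransferase, had 2 in each RT112 library and 4 and 7 in UM-UC-3. The chromatin remodeller ATRX (281.4 kb) had 9 and 5 peaks in RT112 versus 9 and 10 in UM-UC-3.

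Counted per length, the members had 0.0283 and 0.018 peaks per kb in RT112 compared with 0.0376 and 0.0387 in UM-UC-3. The mean was 0.0232 ± 0.00728 peaks per kb (SD, n = 2) in RT112 versus 0.0381 ± 0.000827 (SD, n = 2) in UM-UC-3. The difference between the lines was 0.015 peaks per kb, with both UM-UC-3 libraries higher (two-sided p = 0.333 in the exact permutation test over libraries, the smallest it can give). It was 0.0201 without RT112 replicate 1 and 0.00983 without RT112 replicate 2. The density at the members was 1.38 and 1.36 times that of the other chromosome 19 genes in RT112 compared with 1.6 and 1.52 times in UM-UC-3. Against genes on other chromosomes it was 0.874 and 0.893 times in RT112 versus 1.03 and 1.01 times in UM-UC-3. The members were thus denser in peaks than the other genes of their own chromosome. Against genes on other chromosomes they were lower in RT112 and close in UM-UC-3. Against the whole chromosome the excess was smaller, with 15.3% of its length and 16.5 to 18.4% of its peaks at the members. None of these densities was matched on GC content.

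Peaks at the members were similar to all peaks in median score. Their share of strong peaks was well below that over all peaks in RT112 replicate 1 and near it in UM-UC-3 replicate 1. Their median score was 3.8 to 4.24 across the libraries, against 3.8 to 4.09 for all peaks of a library. A score of at least 10 was reached by 5.37 and 7.79% of them in RT112 and by 9.03 and 7.55% in UM-UC-3. Over all peaks these shares were 10.1, 8.75, 9.16 and 9.18%, and at other chromosome 19 genes 13.4, 11.7, 11.4 and 9.72%, higher than at the members in every library. A peak of the other replicate overlapped 35.1 and 57.1% of them in RT112 versus 70.4 and 68.6% in UM-UC-3. The same shares over all peaks were 38.2, 61.3, 74.9 and 71.7%, each slightly higher. Because the members are close together, 5.79 to 9.09% of the peaks counted lay in the windows of 2 or more members. Words of 100 bases that occur more than once on chromosome 19 made up 0.476 to 0.914% of the peak sequence at the members and 0.865% of the sequence of the members and their flanks.

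The members were then followed across the libraries. A peak was found in both RT112 replicates at 80 members (33.3%), against 40.4% of all genes, and in both UM-UC-3 replicates at 139 (57.9%), against 53.7%. All 4 libraries had a peak at 64 members (26.7%, against 33% of all genes), and no library had one at 34 (14.2%, against 26.4%). Both UM-UC-3 replicates and neither RT112 library had a peak at 38 members (15.8%, against 10.4% of all genes). The reverse pattern was found at 8 members (3.33%, against 4.41%). Of the 38, 18 lay on 19p, where they made up 21.7% of the members of that arm, and 20 on 19q (12.7%). The number of peaks was higher in both UM-UC-3 libraries than in both RT112 libraries at 67 members (27.9%, against 26.2% of all genes) and lower in both at 12 (5%, against 8.13%).

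Having a peak in every library rarely meant the same site. In 4 member regions a peak of RT112 replicate 1 overlapped a peak in each other list. These were the ZNF582 region printed above, an intron of ZNF536 (chr19:30899504-30899740), a region of ZNF577 (chr19:52352553-52352881) and the last exon of ZNF530 (chr19:58120131-58120385). They were 1.21 to 2.6% of the peaks at the members, against 1.8 to 3.38% of all peaks. The ZNF577 region had scores of 4.94 and 2.97 in RT112 compared with 9.65 and 5.16 in UM-UC-3, and the ZNF536 and ZNF530 regions stayed at or below 6.57 in every library.

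Most of the genes with the most peaks were long. ZNF536 (chr19:30715798-31204493), a large gene at the start of 19q known as a negative regulator of neuronal differentiation, is 488.7 kb long and had 23 and 19 peaks in RT112 versus 27 and 21 in UM-UC-3. The lines overlapped in this gene, and 13 peaks of each RT112 library and 17 of each UM-UC-3 library had a counterpart in the other replicate. ZNF577 (86.1 kb) had 6 and 5 peaks in RT112 compared with 7 and 9 in UM-UC-3. ZNF83 (96.5 kb) had 6 and 4 in RT112 versus 6 and 8 in UM-UC-3. ZNF345, ZNF382, ZNF540 and ZNF875, all in a cluster on 19q and 29.3 to 62.8 kb long, had 1 to 4 peaks in each RT112 library and 3 to 6 in each UM-UC-3 library. At the other end of the scale, 5 members of 29 kb or more had no peak in any library. These were ZNF714, ZNF765, ZNF787, ZNF737 and ZNF404. ZNF714, the longest of them at 43.1 kb, lies in the same 19p cluster as genes with many peaks.

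The largest gains of UM-UC-3 over RT112 were in genes of 19p next to the centromere. ZNF98 (chr19:22573821-22715287) had 3 and 0 peaks in RT112 compared with 6 and 9 in UM-UC-3. All 6 peaks of UM-UC-3 replicate 1 overlapped a peak of replicate 2, and an intronic one at chr19:22674631-22674868 had scores of 18.2 and 18.1. ZNF675, known to dampen TRAF6 signalling, had 3 peaks in each RT112 library and 8 and 9 in UM-UC-3, with a highest score of 3.27 in RT112 versus 19.5 in UM-UC-3. ZNF254 had 1 and 0 peaks in RT112 compared with 6 and 5 in UM-UC-3. ZNF66 had 1 peak in each RT112 library and 5 in each UM-UC-3 library. The gene among these 5 that lies on 19q was ZNF578, with no peak in RT112 versus 5 and 3 in UM-UC-3. In all 5 genes the ranges of the lines did not overlap, which is how they were chosen.

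The 5 members taken for the largest differences in the other direction lay near the end of 19q and in the cluster at 44 to 45 Mb. ZNF415 on 19q, with 2 peaks in each RT112 library and none in UM-UC-3, was equal to the last of them, and the other 6 members whose RT112 counts lay above both UM-UC-3 counts differed by less. ZNF135 had 3 peaks in each RT112 library, all at the same positions in both, and 1 and 0 in UM-UC-3. ZNF773 had 3 and 2 in RT112 and none in UM-UC-3. ZNF814 had 4 and 1 in RT112 and none in UM-UC-3, but no peak of one RT112 library overlapped one of the other. ZNF112 had 2 in each RT112 library and none in UM-UC-3. ZNF235 had 6 and 4 in RT112 compared with 2 and 3 in UM-UC-3, where its strongest peak is the one printed above. Its numbers were thus higher in RT112 and its highest score was in UM-UC-3, 32.3 against 10.8.

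Members with known roles were read whatever their values. ZNF91 and ZNF93 are repressors of retrotransposons of the SVA and LINE families. ZNF91 (chr19:23487793-23578273) had 2 and 1 peaks in RT112, at different positions, and 6 and 5 in UM-UC-3, of which 5 were shared by the replicates. ZNF93 (chr19:20011722-20074273) had 3 and 1 peaks in RT112 versus 2 and 0 in UM-UC-3. ZNF274, which recruits SETDB1 to the 3′ ends of zinc finger genes, had 3 peaks in RT112 replicate 1, all intronic, and none in the other libraries. The imprinted gene ZNF331 had 2 and 1 peaks in RT112 compared with 4 and 3 in UM-UC-3, and the 3 peaks of UM-UC-3 replicate 2 overlapped peaks of replicate 1.

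ZNF154, ZNF582 and ZNF671 are genes whose promoters are known to be methylated in cancers. ZNF154 had 3 and 1 peaks in RT112 versus 0 and 1 in UM-UC-3. ZNF582 had 1 in each RT112 library and 2 in each UM-UC-3 library, and ZNF671 had 1 and 2 in RT112 compared with 2 in each UM-UC-3 library. None of the 3 genes had a peak within 500 bp of its start site in any library. Only 0.628 to 1.43% of genes on other chromosomes had such a peak, so its absence at 3 genes says little. ZNF420, a regulator of p53, had 3 and 1 peaks in RT112 versus 3 and 6 in UM-UC-3. The KRAB repressors ZNF568 and ZNF382 had 2 and 2, and 4 and 1 peaks in RT112, and 4 and 5, and 4 and 6 in UM-UC-3. ZNF649 had 1 peak in each UM-UC-3 library and none in RT112, and ZNF765 had none.

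**Figure D2:**
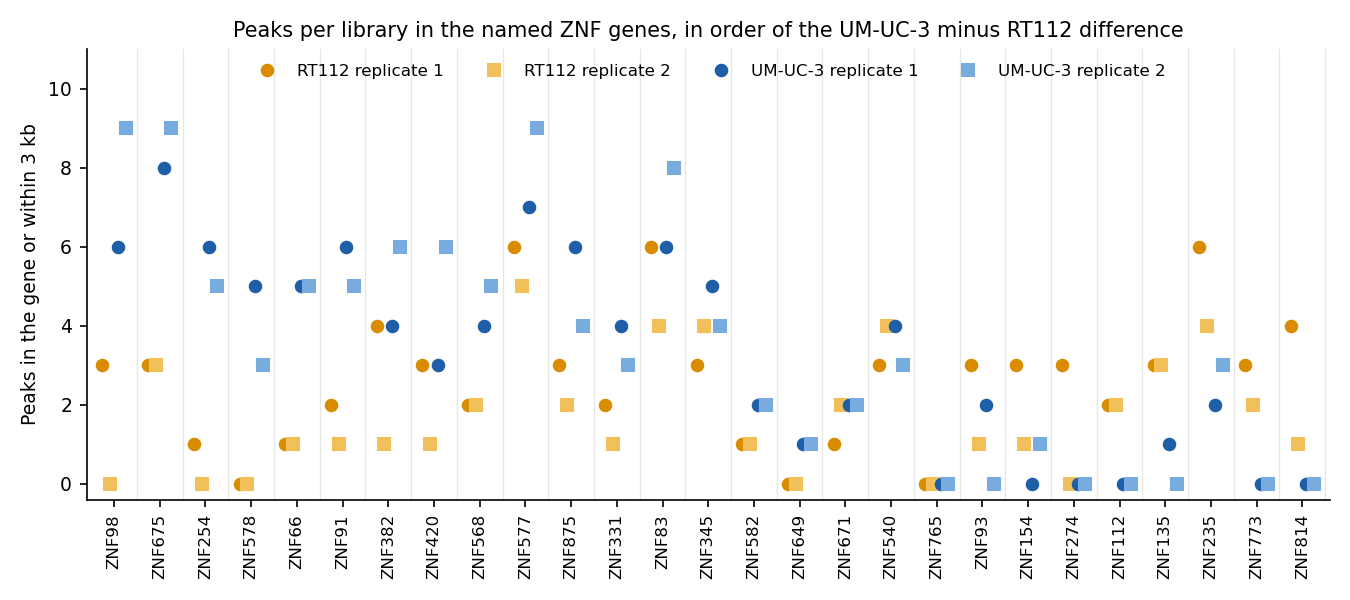
Peaks in the gene or within 3 kb (y axis, number) for named members other than ZNF536 (x axis), ordered by the UM-UC-3 minus RT112 difference of the means, 1 point per library. ZNF98 at the left had 6 and 9 peaks in UM-UC-3 against 3 and 0 in RT112, and ZNF814 at the right had 4 and 1 in RT112 and none in UM-UC-3.

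The arms of chromosome 19 differed most in RT112. On 19p, 39.8% ± 11.9 (SD, n = 2) of the members had a peak in RT112, and on 19q 51.6% ± 9.01 (SD, n = 2). UM-UC-3 had 66.9% ± 4.26 on 19p and 65.6% ± 0.901 on 19q (SD, n = 2). The 19q share minus the 19p share was 9.77 and 13.9 points in the RT112 libraries and -4.91 and 2.39 points in the UM-UC-3 libraries. Per length the contrast was larger. In RT112 the members had 0.013 ± 0.0057 peaks per kb on 19p and 0.0297 ± 0.0083 on 19q, and in UM-UC-3 0.034 ± 0.00127 and 0.0408 ± 0.000544 (SD, n = 2). The ratio of 19q to 19p was 2.09 and 2.66 in RT112 compared with 1.22 and 1.18 in UM-UC-3.

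The rest of the chromosome showed a contrast of the same kind in density. At the other genes of chromosome 19 the ratio of 19q to 19p was 2.06 and 2.44 in RT112 versus 1.41 and 1.38 in UM-UC-3. Over all sequence outside the members and their flanks it was 2.18 and 2.39 in RT112 compared with 1.44 and 1.42 in UM-UC-3. In the share of genes with a peak, 19q minus 19p was 15.2 and 13.6 points at the other genes in RT112 and 4.81 and 8.6 points in UM-UC-3, where the members had -4.91 and 2.39. The members of 19p were longer, with a median of 28.3 kb against 22.7 kb on 19q. Genes on other chromosomes standardised to the lengths of the 19p and of the 19q members had 54.8 and 48.4% in RT112 replicate 1, 42 and 36.3% in replicate 2, 60.7 and 53.6% in UM-UC-3 replicate 1 and 61.8 and 54.7% in replicate 2. The higher density on 19q was thus not limited to the zinc finger genes. Copy number of the arms in these lines was not measured here, and its part in these values was not tested.

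Within the arms the members lie in clusters, defined as runs of at least 5 members with gaps of at most 500 kb. There were 10 such clusters, numbered along the chromosome, which held 228 members. Clusters 1 to 4 lie on 19p and clusters 5 to 10 on 19q. Cluster 1 (5 genes, ZNF554 to ZNF77, at 2.82 to 2.94 Mb) had 0.00909 and 0 peaks per kb in RT112 versus 0.0273 and 0.0364 in UM-UC-3. Cluster 2 (13 genes, ZNF414 to ZNF846) had 0.013 and 0.0104 in RT112 compared with 0.0496 and 0.0339 in UM-UC-3. Cluster 4, the 37 genes from ZNF101 to ZNF254 that lie beside the centromere at 19.8 to 24.3 Mb, had 0.0162 and 0.00759 in RT112 versus 0.0344 and 0.041 in UM-UC-3. In these 3 clusters the mean of UM-UC-3 was 7, 3.56 and 3.17 times that of RT112, and the lines did not overlap. Cluster 1 had 1 member with a peak in RT112 replicate 1 and none in replicate 2, so its ratio rests on few peaks. Cluster 3 (25 genes, ZNF653 to ZNF791) had a UM-UC-3 to RT112 ratio of 1.26 and overlapping lines, with 0.0214 and 0.0126 peaks per kb in RT112 compared with 0.0239 and 0.0189 in UM-UC-3.

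On 19q the ratio of the lines varied between clusters and was under 1 in clusters 9 and 10. Cluster 5 (5 genes around ZNF302) had a UM-UC-3 to RT112 ratio of 2, cluster 6 (24 genes, ZNF565 to ZNF573) of 1.68 and cluster 8 (39 genes, ZNF175 to ZNF331) of 1.85, each without overlap of the lines. Cluster 6 had the highest share of members with a peak in UM-UC-3, 21 and 22 of its 24 genes. Cluster 7 (23 genes, ZNF575 to ZNF180) had a ratio of 1.24 and overlapping lines. Cluster 9 (16 genes, ZNF628 to ZNF835) had 0.0386 and 0.0166 peaks per kb in RT112 versus 0.0221 and 0.0276 in UM-UC-3. Cluster 10 (41 genes, ZNF264 to ZNF446, at 57.7 to 59 Mb) had 0.0486 and 0.0271 in RT112 compared with 0.0305 and 0.0328 in UM-UC-3. In both, the UM-UC-3 values lay between those of the RT112 replicates.

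**Figure D3:**
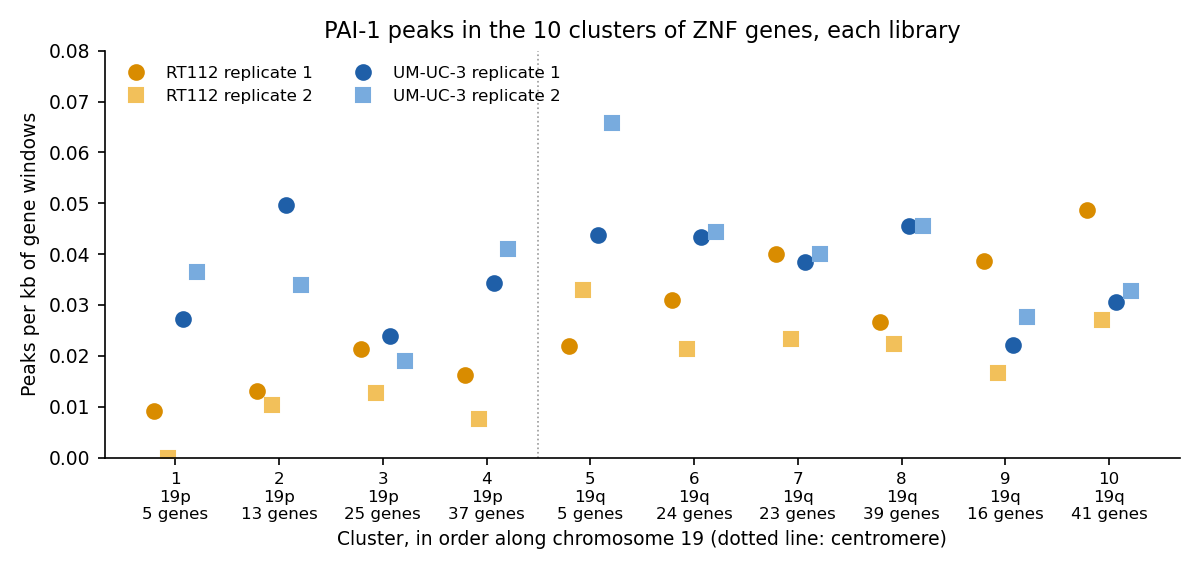
Peaks per kb of the members and their 3 kb flanks (y axis) in the 10 clusters of zinc finger genes in order along chromosome 19 (x axis, with arm and number of genes), 1 point per library and a dotted line for the centromere. UM-UC-3 lies above RT112 in clusters 1, 2 and 4 on 19p, whereas in clusters 9 and 10 at the end of 19q its libraries lie between the RT112 replicates.

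To see where in the genes the peaks lay, the midpoint of each peak was assigned to a part of the gene. Introns of the members held 0.0216 ± 0.00598 midpoints per kb in RT112 versus 0.0407 ± 0.000323 in UM-UC-3 (SD, n = 2). The coding part of the last exon, where the fingers are coded, held 0.0151 ± 0.00972 in RT112 compared with 0.0385 ± 0 in UM-UC-3 (SD, n = 2), from 11 and 28 midpoints over both replicates. The non-coding part of the last exon held 0.0263 ± 0.0179 in RT112 versus 0.0341 ± 0.00413 in UM-UC-3 (SD, n = 2). In UM-UC-3 the coding last exon was 0.951 and 0.941 times as dense as the introns, whereas at other chromosome 19 genes this ratio was 0.126 and 0.356, from 4 midpoints in all, and at genes on other chromosomes 0.624 and 0.632. In RT112 the members instead had the lowest ratio in both libraries, 0.851 and 0.475. It was 1.04 and 0.912 at other chromosome 19 genes and 0.953 and 1.07 on other chromosomes. The RT112 ratios rest on 8 and 3 coding last-exon midpoints at the members and on 7 and 4 at other chromosome 19 genes.

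The start sites held few peaks. Within 500 bp of the start site the members had 1 midpoint in RT112 and none in UM-UC-3, and their first exons had none in either line. A peak overlapped this stretch at 3 members in RT112 replicate 1, none in RT112 replicate 2 and 3 in each UM-UC-3 library. They were ZNF283, ZNF83 and ZNF773 in RT112, and ZNF283 and ZNF226 with ZNF573 or ZNF44 in UM-UC-3. These shares, 0 to 1.25% of the members, lay beside 0.908 to 1.65% for other chromosome 19 genes and 0.628 to 1.43% for genes on other chromosomes.

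**Figure D4:**
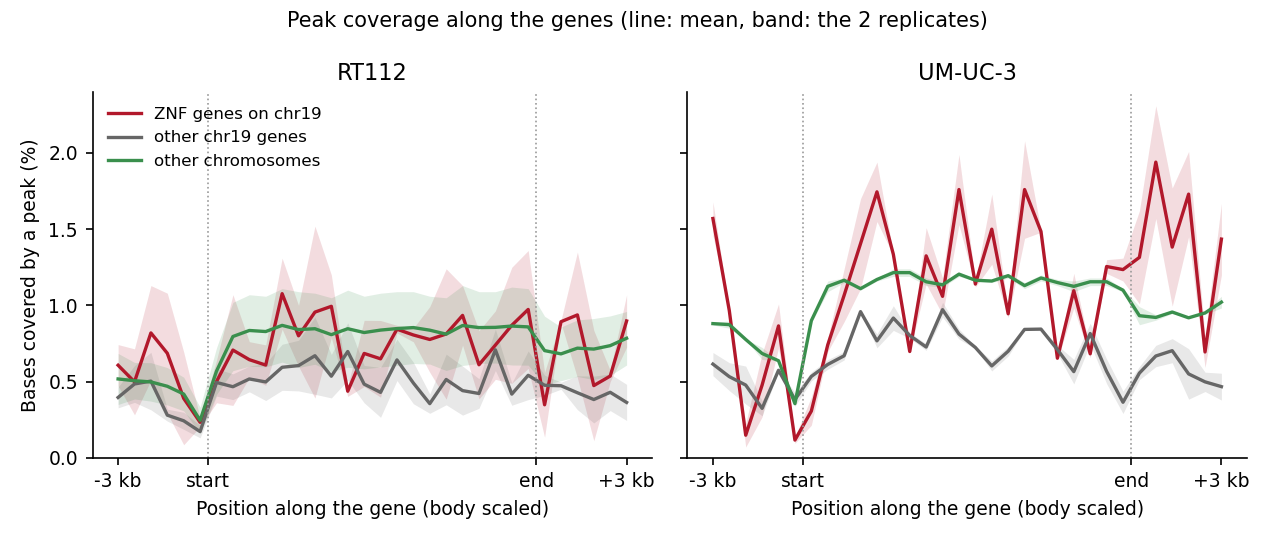
Share of bases covered by a peak (y axis, percent) from 3 kb before the start to 3 kb after the end of the gene, with gene bodies scaled to 20 bins (x axis), for the members, other chromosome 19 genes and genes on other chromosomes in RT112 and UM-UC-3. Lines are means and bands span the 2 replicates, and in the last 500 bp before the start the members' coverage was 0.262 and 0.204% in RT112 compared with 0.095 and 0.138% in UM-UC-3.

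The last exon was then examined by gene. It was long in the members, with a median of 3296.5 bp against 687 bp at other chromosome 19 genes and 1435 bp elsewhere. A peak overlapped the last exon of 28 members (11.7%) in RT112 replicate 1 and of 10 (4.17%) in replicate 2, against 6.15 and 3.66% of all genes with more than 1 exon. In UM-UC-3 it did so in 28 (11.7%) and 32 members (13.3%), against 6.46 and 6.76%. The mean was 7.92% ± 5.3 in RT112 versus 12.5% ± 1.18 in UM-UC-3 (SD, n = 2), a difference of 4.58 points (exact permutation test, two-sided p = 0.667, where 0.333 is the smallest possible). RT112 replicate 1 and UM-UC-3 replicate 1 had the same number, and the difference was 8.33 points without RT112 replicate 1 and 0.833 without RT112 replicate 2.

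Standardised on the length of the last exon, other chromosome 19 genes had 9.61 and 4.64% in RT112 compared with 4.19 and 3.99% in UM-UC-3. Genes on other chromosomes had 10.8 and 6.64% in RT112 versus 12 and 12.4% in UM-UC-3. The members were thus above the other genes of their chromosome in both UM-UC-3 libraries, and within 3 points of the other chromosomes in all 4 libraries. Before standardising, only 1.02 and 1.53% of the other chromosome 19 genes had a last-exon peak in UM-UC-3, so this comparison rests on few genes. It was not matched on GC content. On 19p, 5.42% ± 4.26 of the members had a last-exon peak in RT112 compared with 12.7% ± 0.852 in UM-UC-3 (SD, n = 2). On 19q the shares were 9.24% ± 5.86 and 12.4% ± 1.35 (SD, n = 2). Across the 239 members with a readable frame, Spearman's rho between the number of fingers and that of last-exon peaks was between -0.0846 and 0.119 in the 4 libraries.

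**Figure D5:**
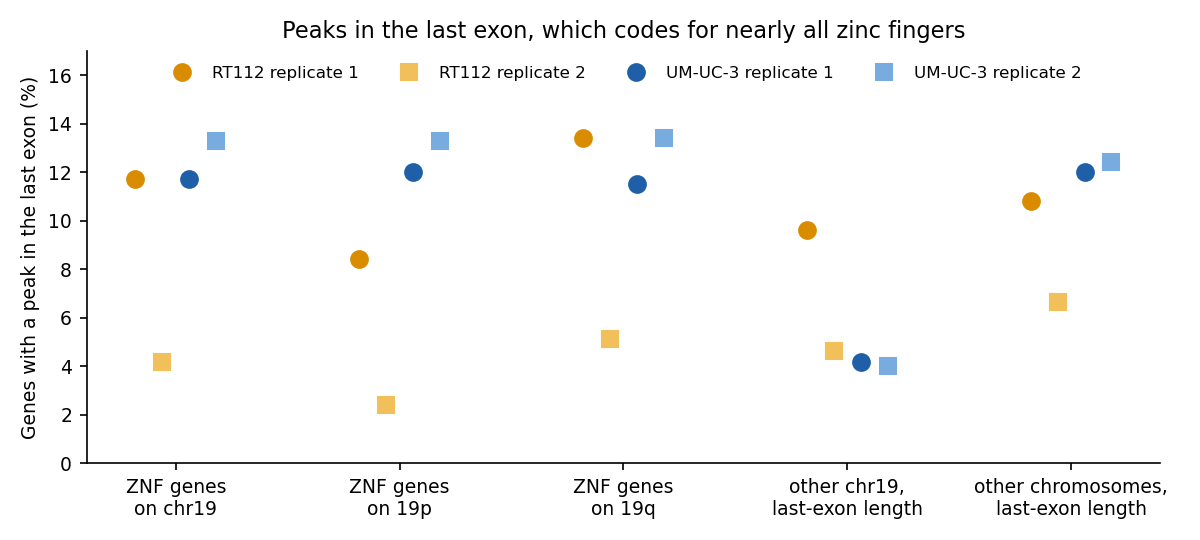
Share of genes with a peak in the last exon (y axis, percent) for the members, for the members of each arm, and for other genes standardised to the members on last-exon length (x axis), 1 point per library. The UM-UC-3 libraries have 11.7 and 13.3% at the members against 4.19 and 3.99% at other chromosome 19 genes, and 12 and 12.4% at genes on other chromosomes.

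A last-exon peak was found in at least 1 library at 63 of 240 members, without a share over all genes to set beside it. It was found in both RT112 replicates at 7 members (2.92%), near the 2.54% of all genes with more than 1 exon. In both UM-UC-3 replicates it was found at 22 (9.17%), against 4.89%. The last exons of the members are longer, and these shares were not standardised on length. The 7 were ZNF490, ZNF461, ZNF320, ZNF471, ZNF264, ZNF530 and ZNF135. ZNF264 and ZNF530, both in cluster 10, were found in all 4 libraries, but in ZNF264 the peaks of the lines did not overlap. They lay at chr19:57731593-57732076 in RT112 and at chr19:57732081-57732378 in UM-UC-3, in the non-coding part of the exon, 4 bases apart.

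The strongest last-exon peaks in RT112 were at ZNF471 and ZNF135. ZNF471 (chr19:57040578-57040971), a KRAB gene reported as methylated in cancers, had scores of 26.1 and 25.8 in RT112 in the non-coding part of the exon, and in UM-UC-3 its sole peak lay in an intron. The ZNF135 peak, printed above as called in replicate 2, had scores of 21 and 17.1 in RT112 replicates 1 and 2 and was not found in UM-UC-3. In UM-UC-3 the highest mean score was at ZNF57, with 11.3 and 12.9 for the peak over 4 fingers printed above, and this gene had no peak in RT112. ZNF559 (9.65 and 9.6), ZNF805 (11.3 and 8.05) and ZNF551 (8.09 and 8.05) followed, and these lay in the non-coding part of the exon. ZNF77 had 5.77 and 8.44 over its fingers, and ZNF66 had 8.46 and 3.19 outside its coding sequence. ZNF599 had 6.61 and 6.57 over its fingers in UM-UC-3, while in RT112 its peaks lay in an intron with scores of up to 19.3 and 12.3.

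Of the last-exon peaks, 11 of 29 and 3 of 10 touched coding sequence in RT112, and 14 of 31 and 17 of 35 in UM-UC-3. Finger codons were touched by 8 and 3 peaks in RT112 and by 10 and 11 in UM-UC-3. The 9 members where such a peak was found in both replicates of a line were ZNF135 in RT112 and ZNF57, ZNF77, ZNF223, ZNF302, ZNF473, ZNF599, ZNF616 and ZNF708 in UM-UC-3. ZNF473, known for its part in the processing of histone pre-mRNA, and the others besides those printed had scores of 2.63 to 6.61. The ZNF708 peak spanned 497 and 527 bases and touched 7 fingers, the most of these 9. The lists do not say how reads that fit more than 1 place were handled.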

How the data were processed

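ChIP-seq libraries of PAI-1 were prepared by the authors, mapped to hg19 with Bowtie 1.1.1, cleared of PCR duplicates with Picard and called with MACS2 2.1.0.20140616, as given in the study's methods and the submitters' processing notes. The authors deposited 1 peak list per ChIP library. The authors' score column was taken for a −log10 of the caller's significance, a p-value or its adjusted form, without the lists naming the form. A figure legend of the study names a false discovery limit for bound probe sets without tying it to these lists. The threshold behind the lists and the use of the input in calling are not given in the sources used here. Read depth is unknown.

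Lines with the same start and end were counted once. Genes came from GENCODE 44 on GRCh37, and peaks overlapped a window when they shared at least 1 bp. Exons and start sites are those of 1 transcript per gene. Fingers were read from the translated coding sequence as C, 2 residues, C, 12 residues, H, 3 to 5 residues, H, which finds canonical fingers only. The members and gene lists were chosen with earlier results of these data known. Libraries were the replicates, and the cell lines were compared by a two-sided exact permutation test (scipy 1.17.1). Named genes were the 10 with most peaks, up to 10 with last-exon peaks in both replicates of a line by mean score, the 5 longest without peaks, the 5 with the largest differences without overlap in each direction, those with a peak in all 4 libraries, and 12 with known roles. Genes named for start-site peaks, the complete lists of last-exon genes, ZNF208, ZNF415, and the pathway and related genes singled out were named after their values were seen. The counting was tested on simulated data. Python 3.11.15, numpy 2.4.6, pandas 2.3.3 and matplotlib 3.10.9 were used.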

Additional observations from a re-analysis of the deposited data

Results flagged for a closer look

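Cluster 10, at the end of 19q, moved against the other members between the cell lines. Its peaks per kb divided by those of all members were 1.72 and 1.51 in RT112 versus 0.811 and 0.848 in UM-UC-3, with means of 1.61 and 0.829. Both RT112 libraries were above all members and both UM-UC-3 libraries below, which is the rule by which it was picked from the 10 clusters. The difference was not tested.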

How the results depend on the processing

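The alternatives were 105 in number over 11 results. In 8 the sign turned, and in 21 an untested value moved by more than 1 SD of the replicates. In the other 76 the sign was kept, and an untested value moved by less than 1 SD. With 2 replicates, leaving 1 out moves a mean by less than 1 SD whatever the data, so only its sign could change. The replicate block repeats the main difference by construction. The 76 are thus not a count of checks that could all have failed. The tested differences between the lines kept their sign but moved in size, from 11.5 to 25.6 points for the share, 0.00983 to 0.0201 for peaks per kb and 0.833 to 8.33 points for the last exon when a library was left out. The exact test over 2 against 2 libraries cannot pass 0.05, so its p-values say nothing about stability. For the share of members with a peak, counting gene bodies alone gave 58.8% in UM-UC-3, a 10 kb window gave 59.4% (RT112) and 80.4% (UM-UC-3), the 25% of peaks with the highest scores gave 11.9 and 31%, and peaks found in both replicates gave 26.2 and 53.8%. For the members minus the length-standardised other chromosome 19 genes, the RT112 difference was -0.763 points with the top 25% of peaks, -8.98 with length and GC classes, -3.27 with those classes on other chromosomes, 4.07 with peaks of both replicates and 3.08 against other chromosomes. In UM-UC-3 it was -4.17 with length and GC classes, 3.88 with those classes on other chromosomes, 20.8 with gene bodies, 26.7 with 10 kb, 13.5 with the top 25% and 9.44 against other chromosomes. For 19q minus 19p, RT112 gave 16.4 points with gene bodies, 16.2 with 10 kb and 8.02 with the top 25%. UM-UC-3 gave -7.8 with gene bodies, 2.33 with the top 25%, 1.13 with peaks of both replicates and 8 without cluster 4 (chosen after the data were seen), and -4.91 to 2.39 when either replicate was left out, so it has no stable sign. The last-exon share was 1.46% (RT112) and 3.75% (UM-UC-3) with the top 25%, and in UM-UC-3 9.17% with peaks of both replicates. The causes were not tested. UM-UC-3 stayed above RT112 in the share of members, their peaks per kb and the last-exon share under every alternative. The replicate numbers are shared by the lines but are not known to pair libraries: replicate 1 lay 7.08 points above the mean of RT112 but 0.625 above that of UM-UC-3 for the share of members, and -0.833 points from it for the last exon. A replicate block gave the same differences of 18.5 points (paired exact p = 0.5, the smallest possible), 0.015 peaks per kb (p = 0.5) and 4.58 points (p = 1).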
